A study of Mus musculus with 24 samples.

Results

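The genes described here are 8 regulators of 1 myogenic network, the sine oculis homeobox genes Six2, Six4 and Six5, the eyes absent genes Eya1, Eya2, Eya3 and Eya4, and the dachshund gene Dach1. They were taken by gene name from a table of 28109 mouse genes, and each name matched 1 row. Sine oculis homeobox proteins are transcription factors that bind elements in the control regions of muscle genes. Eya proteins do not bind DNA on their own but join these homeobox proteins as coactivators, and they also carry a phosphatase domain. Dach proteins are nuclear cofactors of the same network and are best known as corepressors. In the embryo this network acts upstream of the myogenic factors, and in adult muscle it is tied to the fast fibre programme.

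The study asked which genes the transcription factors Tead1 and Tead4 control while myoblasts differentiate into myotubes. It used C2C12 cells, an established mouse myoblast line (strain C3H in the labels), and primary myoblasts (PMs) isolated from wild type C57BL/6 mice aged 3 to 4 weeks (strain C57/B6 in the labels). Both cell types received either a control siRNA, labelled siLuc and called siControl here, or a mix of siRNA pools directed at both Tead genes (siTead1/4), and RNA was taken 24 h after transfection in growth medium (day 0) and on days 3 and 6 in low-serum differentiation medium. No group was left untransfected. The 12 groups (2 cell types, 2 siRNAs and 3 days) had 2 biological replicates each. PMs were grown on matrigel in a different base medium, so that strain, medium and coating cannot be told apart from the cell type wherever PMs and C2C12 cells are compared.

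The 24 libraries held 25453830 to 52784510 counts assigned to genes, with a median of 39204772. Levels are given as CPM, which are counts scaled to a common library size, with sizes adjusted by edgeR's TMM method. In PMs siTead1/4 lowered Tead4 from 64.2 and 59.5 to 13.2 and 11.1 CPM at day 0 and Tead1 from 172 and 151 to 69.8 and 50.1 CPM. The day 0 level of Tead4 in C2C12 cells went from 18.7 and 21.2 to 4.37 and 4.28 CPM, but Tead1 stood at 28.8 CPM in replicate 1 and 4.50 CPM in replicate 2 of siTead1/4 against 70.5 and 113 CPM in siControl, so the 2 silenced libraries were unequal. By day 6 Tead1 in C2C12 cells was 70.6 and 77 CPM with siTead1/4 and 76.0 and 136 CPM with siControl. The SD of the log2 difference between the replicates was 0.622 to 0.744 in the siTead1/4 groups of C2C12 cells and 0.413 to 0.558 in the other groups. At least 6 of 7 muscle markers (Myod1, Myf5, Myog, Des, Myh3, Ckm and Acta1) exceeded 1 CPM in every group. Fibroblast markers were also present (a sum over 5 genes of 839 to 3657 CPM in C2C12 cells and 551 to 3869 CPM in PMs). Endothelial markers summed to at most 1.40 CPM in C2C12 cells and 13.8 CPM in PMs. Schwann cell markers summed to at most 1.64 CPM in C2C12 cells and to 2.06 to 13.3 CPM in PMs. Macrophage markers summed to at most 2.42 CPM and adipocyte markers to at most 1.67 CPM in any library. As these are bulk RNA samples, fewer cells that express a gene and less of its RNA per cell cannot be told apart. The libraries were not stranded, so that reads of a miRNA within Eya1, a U6 RNA within Eya4 and pseudogenes within Eya2 and Dach1 cannot be told apart from those of the gene.

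Of the 8 genes, 6 had enough counts to be tested in C2C12 cells, and all 8 were tested in PMs. Eya2 and Dach1 were not tested in C2C12 cells. A gene was called changed when edgeR's quasi-likelihood test, with p-values adjusted over all genes tested, gave an adjusted p under 0.05 and the log2 difference exceeded 1 in size. The p-values measure the spread between replicate libraries, with 2 libraries a group. This spread was estimated jointly over all groups of a cell type, or of both cell types where these were compared. The siTead1/4 groups therefore also enter the p-values of comparisons between siControl groups. The background given with each count of called genes is the share of all tested genes called in the same comparison, in the same direction where the count has 1.

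Per kb of gene length, which allows levels to be set side by side between genes, Eya4, Eya3 and Six4 were the abundant members in both cell types, joined by Six2 in PMs. In PM siControl cells at day 0 the order was Eya4 (mean 22.7 CPM per kb), Six2 (19.9), Eya3 (15.6), Six4 (9.87), Eya1 (4.29), Six5 (1.21), Eya2 (0.753) and Dach1 (0.126), with no overlap between the libraries of neighbours. In C2C12 siControl cells at day 0 it was Eya3 (14.3 CPM per kb), Eya4 (7.61), Six4 (5.84), Eya1 (3.40), Six5 (1.17) and Six2 (0.385), again without overlap between neighbours, with Eya2 and Dach1 near 0. At day 6 in PM siControl cells the libraries of Six4 (6.16) and Six2 (5.80) overlapped, as did those of Six5 (1.68) and Eya1 (1.67), all in CPM per kb.

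**Figure D1:**
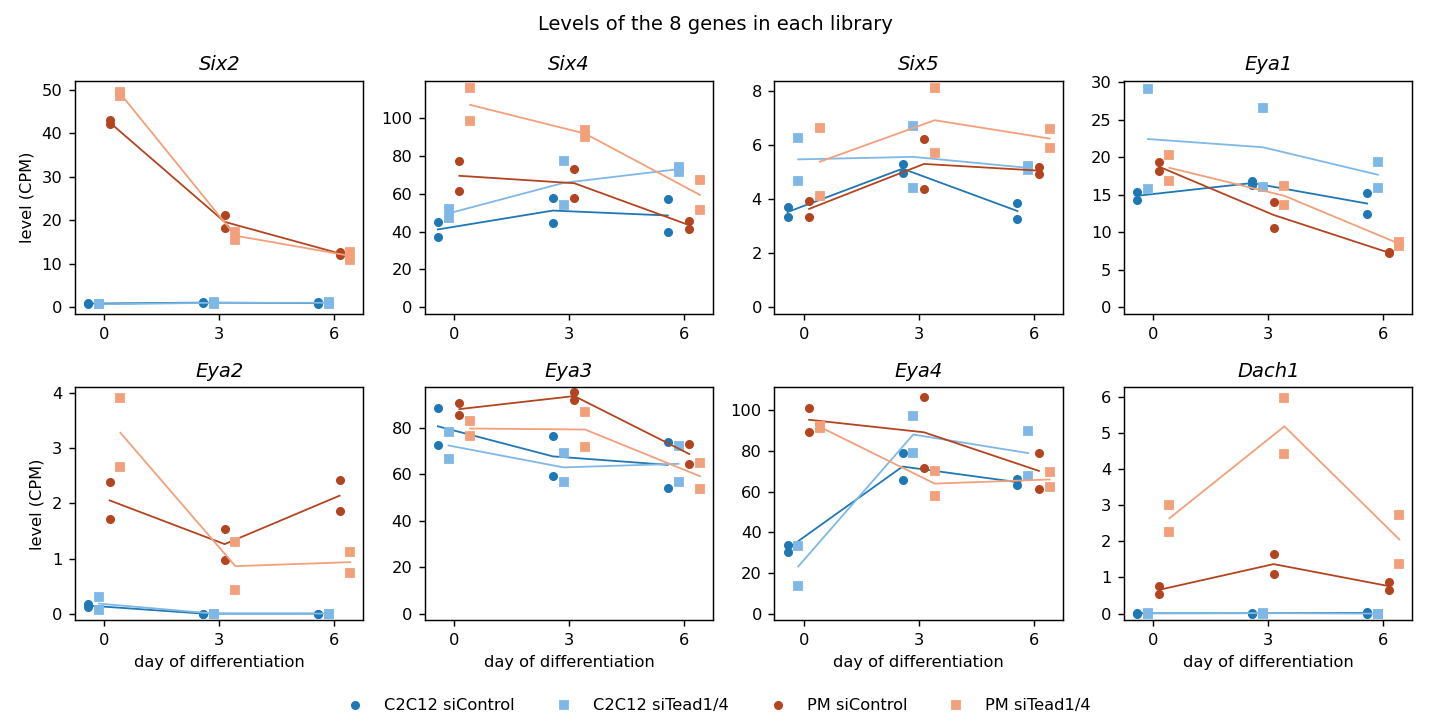
Level of each of the 8 genes in CPM (vertical axis, 1 panel a gene, linear scale from 0) against the day of differentiation; each point is 1 library and lines join the means of the 2 libraries of a group. Six2 sits between 10.9 and 49.5 CPM in PMs and at most 1.24 CPM in C2C12 cells, Eya4 rises from day 0 to day 3 in C2C12 siControl cells, and Dach1 in PMs is higher with siTead1/4 in every pair of groups.

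Six2, Six4 and Six5 differed in level, in the cells that held them and in how they changed. Six2 (chr17:86083608-86087614 on mm9, minus strand), a family member best known for keeping kidney progenitors undifferentiated, was far higher in PMs than in C2C12 cells. PM siControl libraries had 42.0 and 42.9 CPM of Six2 at day 0, 21.1 and 18.1 CPM at day 3, and 12.6 and 12.0 CPM at day 6. The 12 C2C12 libraries had 0.658 to 1.24 CPM, from 18 to 61 counts each, so that the lowest PM library lay above the highest C2C12 library. Six2 was 51.2-fold higher in PMs at day 0 (log2 5.68, SE 0.28, edgeR adjusted p = 1.6e-10), 18.7-fold at day 3 and 13.0-fold at day 6. In PM siControl cells it fell by 1.17 on the log2 scale from day 0 to day 3 (SE 0.12, adjusted p = 1.2e-05) and by 1.85 to day 6 (SE 0.12, adjusted p = 6.2e-07). In C2C12 cells Six2 was not called, with a log2 difference of 0.30 at day 3 (95% interval -0.59 to 1.20) and 0.15 at day 6. Over PM siControl differentiation the summed fibroblast markers went the other way, from 551 to 565 CPM at day 0 to 2797 to 3869 CPM at day 6, and their part in the Six2 values was not tested.

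Six4 (chr12:74200596-74215024, minus strand), which acts alongside related homeobox proteins in embryonic muscle, was expressed in both cell types. In PM siControl cells it had 61.6 and 77.3 CPM at day 0, 57.9 and 73.2 CPM at day 3, and 45.6 and 41.1 CPM at day 6. In C2C12 siControl cells the values were 37.4 and 44.8, 44.6 and 57.5, and 40.0 and 56.9 CPM on the same days. The day 6 PM libraries lay below the day 0 ones (log2 -0.75, SE 0.17, adjusted p = 0.0029), a difference that passed the p threshold but stayed under the log2 threshold. Six4 showed no call between days in C2C12 cells (log2 0.27 at day 3, 95% interval -0.26 to 0.81). Six5 (chr7:19679943-19683898, plus strand) lies beside Dmpk, the gene of the myotonic dystrophy repeat. It was low throughout, at 3.27 to 8.12 CPM over all 24 libraries, and passed no call in any comparison. Dmpk rose from day 0 to day 3 in C2C12 siControl cells (log2 1.5, SE 0.27, adjusted p = 0.0018), whereas Six5 had a log2 difference of 0.50 (SE 0.28, adjusted p = 0.18). At day 0 Dmpk and Dmwd, another gene of the same neighbourhood, were higher in PMs than in C2C12 cells by 2.27 and 1.94 on the log2 scale, while Six5 differed by 0.05 (95% interval -0.53 to 0.63).

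The 4 Eya genes fell into 2 abundant members, Eya3 and Eya4, an intermediate one, Eya1, and a rare one, Eya2. Eya4 (chr10:22823974-23069701, minus strand), a gene of hearing and heart function in humans, changed over C2C12 differentiation. C2C12 siControl libraries had 30.3 and 33.5 CPM of Eya4 at day 0, 65.8 and 78.8 CPM at day 3, and 66.3 and 63.0 CPM at day 6. Both later days lay above day 0 without overlap. The day 3 difference was called (log2 1.14, SE 0.34, adjusted p = 0.023), and it was the only call among the 6 tested genes, with 16% of all tested genes called higher in this comparison. The day 6 difference of 0.98 (SE 0.34, adjusted p = 0.039) stayed just under the log2 threshold, so that no member was called there, against a background of 31.1%. It was the only member with an unadjusted p under 0.05, and DESeq2 called 1 member. Leaving out siControl replicate 1 or replicate 2 of C2C12 cells leaves 1 library in each siControl group. The day 3 call was then lost, with log2 differences of 1.21 and 1.08. Fewer genes in all were called in these fits, as given at the end. In PM siControl cells Eya4 was already high at day 0, at 89.5 and 101 CPM, followed by 71.8 and 107 CPM at day 3 and 61.3 and 79.0 CPM at day 6. Eya4 was therefore 2.99-fold higher in PMs than in C2C12 cells at day 0 (log2 1.58, SE 0.30, adjusted p = 4.4e-04), and the cell types overlapped at days 3 and 6 (log2 0.30 and 0.12, neither called).

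Eya1 (chr1:14159035-14300281, minus strand), a coactivator in early myogenesis, fell over PM differentiation. PM siControl libraries had 18.1 and 19.4 CPM at day 0, 14.1 and 10.5 CPM at day 3, and 7.31 and 7.27 CPM at day 6. The 3 days did not overlap. The fall to day 6 was called (log2 -1.43, SE 0.17, adjusted p = 3.8e-05), and the fall to day 3 passed the p threshold only (log2 -0.67, SE 0.17, adjusted p = 0.0054). C2C12 siControl cells held 12.4 to 16.9 CPM of Eya1 over the same days, with log2 differences of 0.12 and -0.14 from day 0. Eya3 (chr4:132194902-132280680, plus strand), the broadly expressed member, had 53.5 to 95.2 CPM over all libraries and was called in no comparison. It was slightly lower at day 6 than at day 0 in PM siControl cells (log2 -0.42, SE 0.13, adjusted p = 0.013). In the order of the 12 group means of Eya3, every group overlapped the next except PM siControl at day 3, which had the highest mean at 93.6 CPM.

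Eya2 (chr2:165480798-165597227, plus strand) was close to its floor in C2C12 cells and low in PMs. C2C12 libraries had 6 and 7 counts at day 0 with siControl and 3 and 8 with siTead1/4, and all 8 libraries of days 3 and 6 had 0 counts. PM libraries had 20 to 198 counts, or 0.429 to 3.91 CPM. In siControl cells at day 0 the summed PM counts gave a level 14.2-fold that of C2C12 cells (166 against 13 counts, exact 95% interval 8.07 to 27.2 for counting error only). Against a floor of 3 counts a library, Eya2 was at least 19.2-fold higher in PMs at day 3 and at least 27.1-fold at day 6. Within C2C12 siControl cells it was at least 2.23-fold lower at day 3 than at day 0, and at least 1.86-fold lower at day 6. PM siControl cells had 1.72 and 2.39 CPM at day 0, 0.982 and 1.54 CPM at day 3 and 2.43 and 1.86 CPM at day 6, without a call between days.

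Summed per kb over the 4 genes, Eya transcripts in siControl cells came to 25.3 ± 2.38 CPM per kb (SD, n = 2) in C2C12 cells and 43.4 ± 1.72 in PMs at day 0, and to 29.9 ± 1.47 and 31.3 ± 1.78 at day 6. Eya3 was the largest share in C2C12 libraries of day 0 and Eya4 in those of days 3 and 6. In the 12 C2C12 libraries the Eya3 share ran from 25.5% to 63.0%, the Eya4 share from 17.1% to 59.7%, the Eya1 share from 9.16% to 23.4% and the Eya2 share from 0% to 0.575%. In PMs the ranges were narrower for Eya4, Eya3 and Eya1 and wider for Eya2, with 41.9% to 58.9% for Eya4, 32.5% to 46.5% for Eya3, 5.10% to 11.2% for Eya1 and 0.476% to 3.44% for Eya2. Shares of 1 sum depend on each other, and gene lengths are those of the deposited table.

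**Figure D2:**
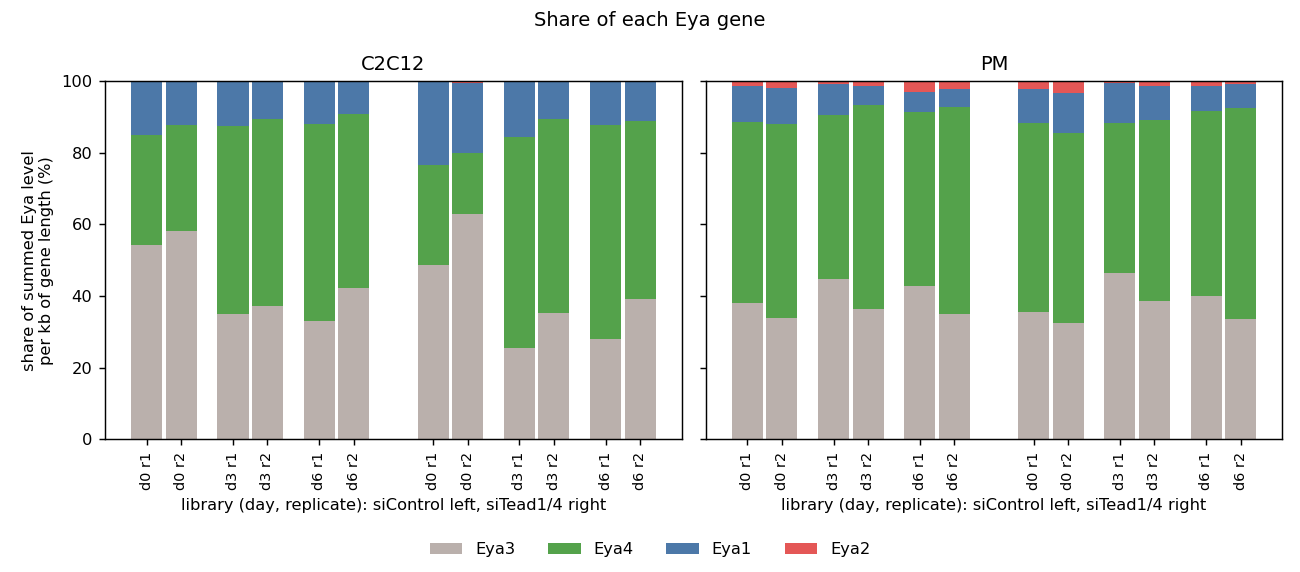
Share of Eya1, Eya2, Eya3 and Eya4 in their summed level per kb of gene length (percent, vertical axis) in each of the 24 libraries, with C2C12 cells on the left, PMs on the right, and siControl before siTead1/4 in each panel; d is the day and r the replicate. In C2C12 libraries of day 0 Eya3 (grey) takes the largest share, and in those of days 3 and 6 Eya4 (green) does.

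Dach1 (chr14:98186066-98568984, minus strand), a corepressor of the network, was nearly absent from C2C12 cells, with 0 to 2 counts in each of the 12 libraries. PM siControl libraries had 26 and 27 counts at day 0, 59 and 43 counts at day 3, and 27 and 20 counts at day 6, or 0.551 to 1.65 CPM. Summed counts in siControl cells were 58.8-fold higher in PMs at day 0 after scaling for depth (53 counts against 1, exact 95% interval 10.1 to 2368), 124-fold at day 3 (102 against 1, interval 21.8 to 4965) and 31.2-fold at day 6 (47 against 2, interval 8.17 to 265). The day 3 PM libraries lay above those of day 0 (log2 1.01, SE 0.40, adjusted p = 0.0502), which missed the threshold narrowly.

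By comparison, 1 of 8 members was called over PM siControl differentiation from day 0 to day 3, Six2, where 14.9% of all tested genes were called lower, and 2 of 8 from day 0 to day 6, Six2 and Eya1, where 15.3% were called lower. From day 3 to day 6 none of the 8 was called in PMs (background 2.8%), and DESeq2 called none. There 4 of the 8 had an unadjusted p under 0.05, and Six2 (log2 -0.68, adjusted p = 0.012) and Eya1 (log2 -0.77, adjusted p = 0.029) passed the p threshold alone. The same step in C2C12 cells gave no call by edgeR among members or all genes (background 0%), with no member and 406 genes at an unadjusted p under 0.05, and DESeq2 called no member. Between the cell types 4 of 8 members were called higher in PM siControl cells at day 0 (Six2, Eya2, Eya4 and Dach1, background 16.3%). At days 3 and 6 it was 3 of 8 (background 17.2% and 15.7%), each time Six2, Eya2 and Dach1. Eya2 and Dach1 passed the count filter through the PM groups alone, so a call in the other direction was hardly open to them. Apart from these, Six2 and Eya4 were called at day 0 and Six2 at days 3 and 6. No member was called lower in PMs, and the share of all tested genes called lower is not given here. The lowest value was that of Eya1 at day 6 (log2 -0.93, edgeR adjusted p = 0.0115), which passed the p threshold alone. With at least 10 counts required in every library Eya2 and Dach1 dropped out, which left 2, 1 and 1 calls.

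The change over differentiation itself differed between the cell types for several members, as tested in 1 model over all 24 libraries. Day 0 was not a matched starting point. The summed muscle markers already stood at 9644 to 10295 CPM in PM siControl cells of day 0, against 960.3 to 1085.5 CPM in C2C12 siControl cells. The part of this in the differences was not tested. From day 0 to day 3 the change of Six2 was lower in PMs than in C2C12 cells (difference of log2 changes -1.45, SE 0.35, edgeR adjusted p = 0.010). It was the only one of 8 members called, with 7.44% of all tested genes called in that direction. From day 0 to day 6, 3 of 8 members were called with a lower change in PMs (background 7.43%), namely Six2 (log2 -1.98, SE 0.36), Eya4 (log2 -1.46, SE 0.42) and Eya1 (log2 -1.26, SE 0.37). Eya2 was called in the opposite direction (background 5.27%) at an adjusted p of 0.0496, a value that rests on C2C12 groups with 0 counts. Most of these calls ended when 1 siControl replicate was left out, which leaves 1 library in each siControl group of that cell type. At day 3 Six2 was lost without C2C12 siControl replicate 1 (log2 -1.10, adjusted p = 0.13), PM siControl replicate 1 (-1.57, 0.063) or PM siControl replicate 2 (-1.32, 0.12). At day 6 Eya4, Eya1 and Eya2 were lost without any of the 4, and Six2 without C2C12 siControl replicate 1 (log2 -1.35, adjusted p = 0.072).

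**Figure D3:**
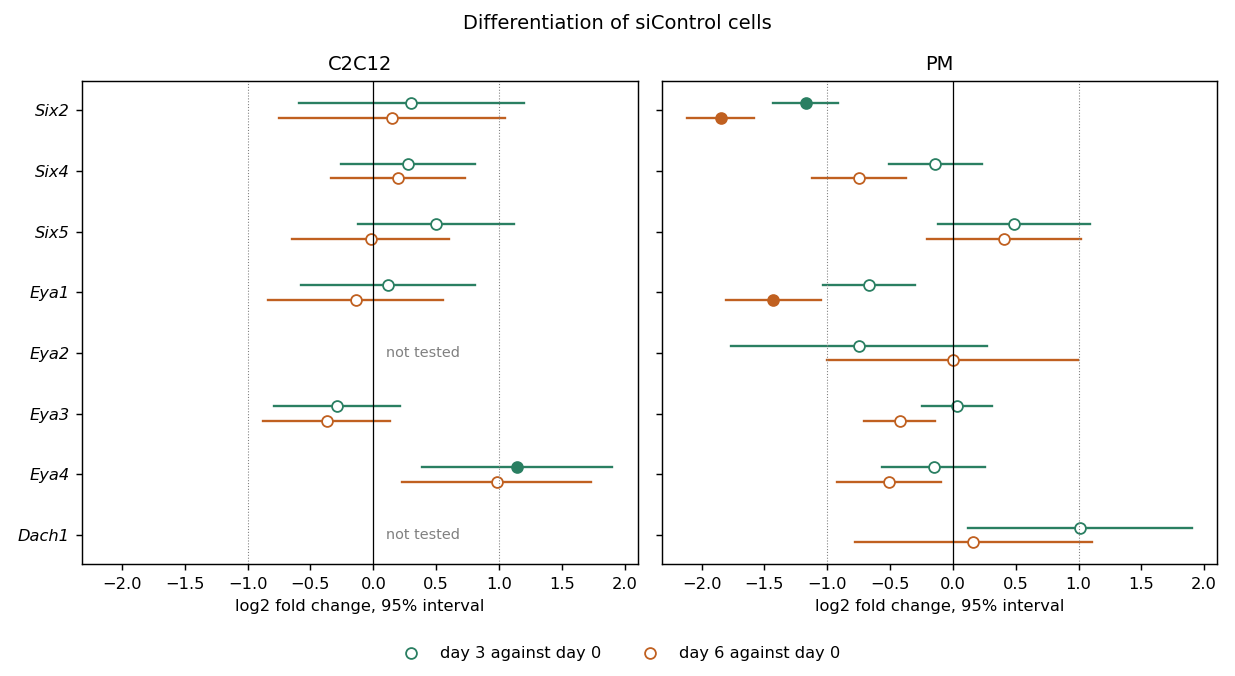
Log2 difference from day 0 (horizontal axis) at day 3 and day 6 for each gene in siControl cells, with 95% intervals from edgeR's quasi-likelihood fit of each cell type; filled points were called, dotted lines mark a log2 difference of 1 and genes without enough counts are shown as not tested. Six2 and Eya1 lie to the left in PMs, and Eya4 to the right in C2C12 cells.

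Silencing of Tead1 and Tead4 raised Dach1 in PMs. With siTead1/4 PM libraries had 3.01 and 2.27 CPM at day 0 against 0.551 and 0.761 CPM with siControl. They had 5.96 and 4.41 CPM against 1.65 and 1.09 CPM at day 3, and 2.74 and 1.36 CPM against 0.873 and 0.652 CPM on day 6. Both silenced libraries lay above both control libraries on each day. The difference was called at day 0 (4.01-fold, log2 2.01, SE 0.39, adjusted p = 0.014) and at day 3 (3.77-fold, log2 1.91, SE 0.37, adjusted p = 0.013), and at day 6 it missed the p threshold (log2 1.43, SE 0.40, adjusted p = 0.14). Dach1 was the only one of 8 members called at days 0 and 3, where 1.5% and 2.1% of all tested genes were called higher. Without a replicate block none was called at day 6 (background 0.743% in either direction). There Dach1, Six4 and Eya2 had an unadjusted p under 0.05, and DESeq2 called none. With the replicate number as a block Dach1 was called at day 6, as given at the end. In PMs the replicate deviations correlated at 0.41 to 0.54 between the siRNAs on the same day. The calls of days 0 and 3 rest on 26 to 278 counts a library. They were lost without PM siControl replicate 1, PM siControl replicate 2 or PM siTead1/4 replicate 1, with log2 differences of 1.64 to 2.25. Each of these fits leaves 1 library in a group. Fibroblast markers summed to 808 to 868 CPM in the siTead1/4 libraries of day 0 against 551 to 565 CPM with siControl, and to 1459 to 1973 against 1473 to 1594 CPM at day 3, and their part in the Dach1 values was not tested. Of 4 endothelial markers, all had a higher mean with siTead1/4 at day 0 (list median log2 0.47 against -0.01 for all tested genes), and Tek was called (3.15 and 2.25 against 1.04 and 0.845 CPM, 2.83-fold, adjusted p = 0.012), while their sums overlapped (5.12 to 13.8 against 2.93 to 8.71 CPM). At day 3, 1 of 4 had a higher mean and none was called, and at day 6 none had a higher mean. The part of these markers in the Dach1 values was not tested. In C2C12 cells Dach1 stayed at 0 or 1 count with siTead1/4, so that a change of this kind was not detectable at this depth, and the difference of the silencing effects between the cell types could not be resolved (log2 1.70 at day 0, 95% interval -3.02 to 6.42).

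**Figure D4:**
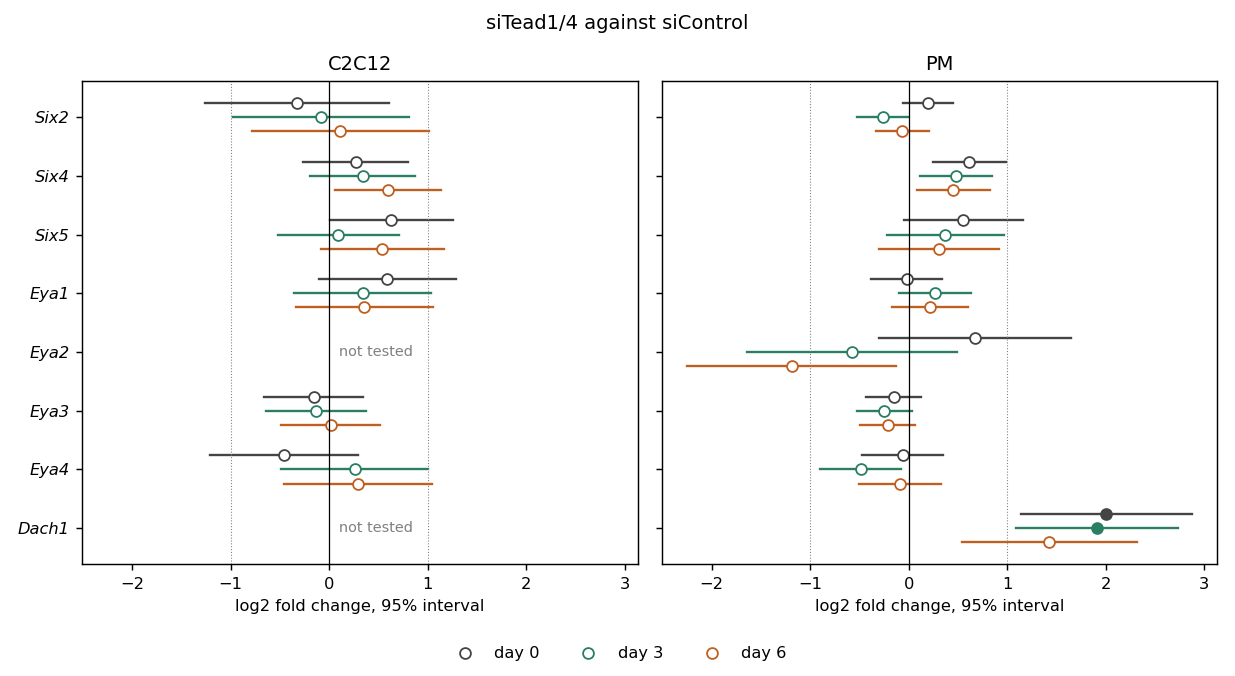
Log2 difference between siTead1/4 and siControl (horizontal axis) at days 0, 3 and 6 for each gene in C2C12 cells (left) and PMs (right), with 95% intervals from edgeR's quasi-likelihood fit of each cell type; filled points were called, dotted lines mark a log2 difference of 1. Dach1 in PMs lies at 2.01, 1.91 and 1.43, apart from the other genes, and Six4 lies to the right of 0 in all 6 comparisons.

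Six4 had higher means with siTead1/4 in both cell types on every day, by less than the log2 threshold. In PMs it had 98.3 and 116 CPM at day 0, 93.6 and 89.9 CPM at day 3 and 67.4 and 51.3 CPM at day 6, each pair above the siControl pair of that day. In C2C12 cells it had 51.9 and 47.3, 77.4 and 54, and 71.6 and 74.4 CPM, which overlapped the siControl values at day 3. The log2 differences were 0.61 (SE 0.17, adjusted p = 0.0501), 0.48 and 0.45 in PMs and 0.27, 0.34 and 0.60 in C2C12 cells, and none was called. DESeq2, run as an alternative, gave an adjusted p of 0.011 for the PM value of day 0. The silencing effect on Six4 did not differ detectably between the cell types (log2 0.35 at day 0, 95% interval -0.28 to 0.99).

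In C2C12 cells none of the 6 tested members was called on silencing at day 0 (background 0.438%), day 3 (1.27%) or day 6 (0.0457%). By edgeR 1 member had an unadjusted p under 0.05 at day 0, Six5, none at day 3 and 1 at day 6, Six4, and DESeq2 called none. The unequal libraries of day 0 showed in Eya1, with 29.1 and 15.8 CPM against 15.4 and 14.3 CPM in siControl, and in Eya4, with 33.1 and 13.4 CPM against 30.3 and 33.5 CPM. Without siTead1/4 replicate 1, which leaves the library with less Tead1, Eya4 was called lower at day 0 (log2 -1.26, adjusted p = 0.031), while without replicate 2 its log2 difference was 0.03 (adjusted p = 0.96). In both fits the remaining library is assumed to vary like the other groups. Eya1 had a log2 difference of 0.59 at day 0 (95% interval -0.11 to 1.29), of 0.08 without replicate 1 and of 0.94 without replicate 2, with no call in any of them. The summed muscle markers stood at 5924 to 7850 CPM with siTead1/4 at day 3 against 15171 to 17643 CPM with siControl, and their part in the C2C12 values was not tested. At day 3 C2C12 cells had 97.1 and 79.0 CPM of Eya4 with siTead1/4 against 65.8 and 78.8 CPM (log2 0.26, 95% interval -0.49 to 1.0).

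In PMs none of the remaining members was called on silencing. Six2 had 49.5 and 48.6 CPM at day 0, 15.5 and 17.3 CPM at day 3 and 12.6 and 10.9 CPM at day 6 with siTead1/4, with log2 differences of 0.20, -0.26 and -0.07 from siControl. Eya4 was lower at day 3, at 57.9 and 69.9 CPM against 71.8 and 107 CPM (log2 -0.49, SE 0.19, adjusted p = 0.15). Eya2, the rare member, was at 2.66 and 3.91 CPM with siTead1/4 at day 0 and at 1.13 and 0.744 CPM at day 6, below both siControl libraries of that day, against 1.72 and 2.39 and 2.43 and 1.86 CPM with siControl. Its log2 difference was 0.67 at day 0 and -1.19 at day 6 (2.28-fold lower, adjusted p = 0.35), and the change in the effect between these days was not called (log2 -1.86, SE 0.65, adjusted p = 0.23). No member was called for a change of the silencing effect from day 0 to day 3 or day 6, in PMs (background 0.328% and 0.626%) or in C2C12 cells (background 0% at both), with 1 member at an unadjusted p under 0.05 at each step in PMs, Six2 and then Eya2. Nor was any called for a difference of the silencing effect between the cell types at day 0 (background 0.00591%), day 3 (1.25%) or day 6 (0.0354%), where Dach1 at day 6 alone had an unadjusted p under 0.05. DESeq2 called none of them either. Libraries that did not overlap were also counted, with the share of all tested genes in brackets. In PMs both siTead1/4 libraries lay above both siControl libraries for 5 of 8 members at day 0 (28.3%), 2 at day 3 (27.4%) and 4 at day 6 (18.4%), and below them for 1 (29.8%), 3 (25%) and 1 (18.2%). In C2C12 cells they lay above for 3 of 6 members at day 0 (18.7%), 1 at day 3 (22.9%) and 4 at day 6 (18.6%), and below for 1 (17.7%), 0 (23.6%) and 0 (21%). Six4 and Six5 were among those higher in both cell types at days 0 and 6.

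Promoter sequence is shown for Dach1 and Six4, the 2 members whose siTead1/4 libraries lay above the siControl libraries of PMs on all 3 days, a choice made after their values were seen. Windows of 300 bases (250 before and 50 after a start site) from RefSeq on GRCm38.p6 were given for 6 of the 8 members, in 8 windows. They were searched on both strands for CATTCC, called the MCAT core here, and for the MEF3 element TCAGGTTTC of the sine oculis homeobox proteins. These do not overlap each other. The study gives the MCAT element of Tead proteins as CATTCC followed by A or T, and this last base was not required. The MCAT core was found in 14.7% of 32851 windows of this length and MEF3 in 0.429%. Among the members the only match to the MCAT core was in the Dach1 window (chr14:98169716-98170015, minus strand). It lay on the same strand with its first base 5 bases before the start site. The base after it is C, so it is not the full element as the study gives it. The only MEF3 match was in the first of 2 Six4 windows (chr12:73113196-73113495, minus strand), on the opposite strand and beginning 99 bases before the start site. Both windows are printed 5′ to 3′ on the strand of the gene, with the matched letters in capitals.
Dach1: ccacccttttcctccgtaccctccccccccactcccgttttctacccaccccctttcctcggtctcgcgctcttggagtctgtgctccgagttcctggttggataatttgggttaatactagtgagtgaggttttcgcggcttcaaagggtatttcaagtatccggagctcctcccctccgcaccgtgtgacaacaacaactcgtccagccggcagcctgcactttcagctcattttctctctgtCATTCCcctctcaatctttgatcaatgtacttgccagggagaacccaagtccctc
Six4: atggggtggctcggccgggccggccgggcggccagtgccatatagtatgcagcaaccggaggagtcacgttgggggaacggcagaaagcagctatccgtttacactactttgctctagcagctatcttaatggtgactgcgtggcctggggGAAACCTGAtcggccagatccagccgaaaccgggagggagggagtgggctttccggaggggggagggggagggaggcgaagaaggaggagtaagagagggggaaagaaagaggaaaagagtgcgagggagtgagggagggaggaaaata
A match describes these letters in this window only, and binding was not measured in these libraries.

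Other genes of the network were read from lists, which were chosen with earlier results of these data known. Among 11 upstream factors, partners and relatives (Pax3, Pax7, Tle1 to Tle4, Aes, Sobp, Dach2, Six3 and Six6), 2 of 8 tested were called higher (background 16%) and none lower from day 0 to day 3 in C2C12 siControl cells, Tle4, a corepressor of the Groucho family (log2 1.52), and Sobp, the sine oculis-binding protein homolog (log2 2.62). In PMs 2 of 10 were called higher (background 17.5%), Sobp (log2 3.18) and Aes (1.11), and 2 lower (background 14.9%), Pax7, the satellite cell factor (log2 -1.51), and Tle1 (-1.31). The list median was 0.45 in C2C12 cells and 0.64 in PMs, against -0.01 and 0.01 for all tested genes. Dach2, the relative of Dach1, was called higher at day 6 in PMs, where 20.2% of all tested genes were (log2 3.38, SE 0.72, adjusted p = 0.0019), from a mean of 0.0916 to one of 0.972 CPM, whereas Dach1 had a log2 difference of 0.16. On silencing only Tle4 was called in this list, lower in C2C12 cells at day 3, with a background of 1.08% (log2 -1.77, SE 0.34, adjusted p = 0.040). Its day 3 value in PMs was -0.70 (adjusted p = 0.065). For the change of the silencing effect from day 0 to day 6 in PMs, Sobp was called higher, as 1 of 10 tested genes of the list (background 0.626% in either direction).

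Among 23 muscle genes with known binding by or dependence on sine oculis homeobox proteins, 16 of 22 tested were called higher (background 16%) from day 0 to day 3 in C2C12 cells and none lower (background 12.7%), with a list median of 6.40 on the log2 scale. In PMs 16 were called higher (background 17.5%) and 2 lower (background 14.9%), Myod1 (log2 -1.27) and Myf5 (-2.28), with a median of 2.76. The list holds genes of differentiated muscle such as Ckm, Myh1, Myh2 and Myh4, so its calls over differentiation are no test of the network. Myog, the factor of early differentiation, rose by 7.47 on the log2 scale in C2C12 cells and differed by 0.05 in PMs, where it was already expressed at day 0. On silencing 1 was called in C2C12 cells at day 3 (background 1.08% lower), Pgam2, a muscle glycolysis enzyme (log2 -1.93, SE 0.30, adjusted p = 0.019), with a list median of -0.94 against 0.01 for all tested genes. In PMs the fast myosin gene Myh4 was called higher on all 3 days (log2 1.91, 2.02 and 1.62), Myh1 lower at days 0 and 3 (log2 -1.71 and -2.33) and Myh2 lower at days 3 and 6 (log2 -1.89 and -2.52), while the list median at day 3 was -0.18. The shares of all tested genes called on silencing in PMs were 1.5%, 2.1% and 0.465% higher and 1.1%, 1.2% and 0.279% lower at days 0, 3 and 6. These myosin genes are distinct genes of similar sequence in 1 cluster, so some reads may be split between them and their values are uncertain.

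Among 7 growth and cell cycle genes tied to the network, 5 of 6 tested were called lower from day 0 to day 3 in each cell type (background 12.7% in C2C12 cells and 14.9% in PMs). Ccnd1, the gene of cyclin D1 and a known target of Dach1 repression in other cells, fell by 4.90 on the log2 scale in C2C12 cells and by 2.57 in PMs. It was the only gene of this list called on silencing, higher at day 3 in C2C12 cells (background 0.19%, log2 1.34, SE 0.26, adjusted p = 0.041) and in PMs (background 2.1%, log2 1.10, SE 0.27, adjusted p = 0.036), while at day 0 in PMs it differed by -0.03.

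The genes whose log2 CPM followed each member most closely over the 24 libraries are given as a description, since these libraries share cell type and day. For Six2 these were Gal, which encodes galanin (Pearson r = 0.990), Rnf144a (0.989) and Agtr2, an angiotensin receptor (0.986). For Dach1 they were Foxp2 (0.976), Pm20d1 (0.975) and Plbd1 (0.970), and for Eya2 Gstk1 (0.966), Clns1a (0.960) and Asb4 (0.957). Eya3 was followed by Polr1a (0.930), Usp31 (0.922) and Ttll4 (0.867), Eya4 by Qk, an RNA-binding regulator of splicing (0.914), Cnot6l (0.909) and Celf2 (0.891), and Eya1 by Zfp827 (0.885), Cpt1a (0.842) and Cdh24 (0.839). Six4 had Fam65b (0.842), Zfp280d (0.832) and Pax7 (0.819), and Six5, the lowest, Ihh (0.760), Mcart1 (0.757) and Col14a1 (0.756). Among the members themselves the closest pair in the 12 PM libraries was Six2 and Eya1 (r = 0.873), both of which fell over the days, and in C2C12 cells the same pair had r = 0.0865.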

How the data were processed

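Poly-A RNA libraries (TruSeq RNA v2) from C2C12 cells and PMs were sequenced by the authors. The submitters' processing notes name CASAVA 1.8.2, TopHat2 2.0.10, Bowtie2 2.1.0, HTSeq 0.6.1, DESeq2 1.8.1 and the build mm9. The deposited table held raw counts per gene for the 24 libraries, and its other 48 columns of these libraries and 36 columns of 12 libraries not listed were not used. Counts were fitted in edgeR 4.0.16 (R 4.3.3) with TMM, filterByExpr and 1 mean per group, for each cell type on its 12 libraries and for comparisons between cell types on all 24. The quasi-likelihood test was used with Benjamini-Hochberg adjustment over all tested genes. Genes were called at an adjusted p under 0.05 where the log2 difference also exceeded 1 in size. The scripts were tested on simulated data. Correlations used log2 CPM with a prior count of 2. Low counts were compared by exact binomial intervals, which cover counting error only, or against a floor of 3 counts a library. Samples were grouped by their labels. The named genes were the 8 members, the siRNA targets, the listed network genes and, for each member, the 3 genes with the highest Pearson r. The members and lists were chosen with earlier results of these data known. The alternatives tried were DESeq2 1.42.0, its size factors, other count filters, other library sets, a replicate block and leaving out each replicate. A further gene of the family list is not reported here.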

Additional observations from a re-analysis of the deposited data

Results flagged for a closer look

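The change over differentiation in siControl cells was called different between the cell types for 4 members, by a test of the difference itself (edgeR's quasi-likelihood test). For Six2 the PM change minus the C2C12 change was -1.45 on the log2 scale at day 3 and -1.98 at day 6. For Eya4 it was -1.46 and for Eya1 -1.26, both at day 6. The value for Eya2 at day 6, 5.62, rests on C2C12 libraries with 0 counts and is no estimate of size. The calls of Eya4, Eya1 and Eya2 were lost when any 1 of the 4 siControl replicates was left out. The Six2 call of day 3 was lost without C2C12 replicate 1 or either PM replicate, and that of day 6 without C2C12 replicate 1. Strain, medium and coating differed with the cell type and cannot be told apart from it. The summed muscle markers were also higher in PM than in C2C12 siControl cells at day 0, and their part in these values was not tested.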

How the results depend on the processing

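The number of members called was recomputed under each alternative, and no called difference of a member changed direction. From day 0 to day 3 in C2C12 siControl cells the 1 call became 2 without a filter on low counts and 2 with all 24 libraries in 1 fit, and 0 to 0 with 1 replicate left out, when 1337 to 1589 genes in all were called in place of 4390. From day 0 to day 6 there, 0 became 1 by DESeq2, with its size factors, without the filter, with at least 10 counts in every library and with only the 4 libraries compared, and 2 with all 24 libraries. In PMs from day 0 to day 3, 1 became 2 without the filter and with at least 10 counts. On silencing, C2C12 cells at day 0 gave 0 to 1 calls with 1 replicate left out, 1 without siTead1/4 replicate 1 (359 genes in all, in place of 67). PMs gave 0 to 1 at day 0 (120 genes in all without siControl replicate 1, in place of 420) and 0 to 1 at day 3 (163 without it, in place of 532). At day 6 in PMs 0 became 1 without the filter. Between cell types 4, 3 and 3 calls became 2, 1 and 1 with at least 10 counts in every library. The effect at day 3 minus day 0 in C2C12 cells gave 0 to 1 calls with 1 replicate left out, 1 without siTead1/4 replicate 1, and that at day 6 minus day 0 in PMs 1 without the filter. The difference of the day 3 changes between cell types gave 2 by DESeq2, 2 with its size factors, 3 without the filter and 0 to 1 with 1 replicate left out, and that of day 6 gave 0 to 1 in place of 4. Except for the alternatives that alter which genes or samples are tested, the cause was not tested.

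The labels do not say whether replicate numbers mark a shared batch. Deviations from group means correlated above 0.1 in 6 of 15 pairs of groups in C2C12 cells (lowest -0.20), which did not show pairing there. In PMs they did so in 14 of 15 pairs (lowest 0.069), with 0.41 to 0.54 between the siRNAs on the same day. PM libraries of 1 replicate number thus varied together in part, and the reported fits carry no block. With the replicate number as a block, silencing in PMs at day 6 gave 1 call, Dach1 (log2 1.40, adjusted p = 0.038), in place of 0 (290 genes in all, in place of 120), and the difference of the day 3 changes between cell types gave 2 in place of 1. The block moved no other count of members called by over 1.5 times. With 2 libraries a group, and at most 8 counts of Eya2 and 2 of Dach1 in a C2C12 library, a change of Dach1 or an effect of silencing on either gene could not be resolved in C2C12 cells, and the fall of Eya2 there is given only as a bound.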
